A study of Mus musculus with 15 samples.

Results

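The genes described here encode the enzymes that cut extracellular matrix and cell-surface proteins, together with the inhibitors that hold them in check. They are the matrix metalloproteases (Mmp genes), the membrane-bound ADAM proteases, the secreted ADAMTS proteases, the tissue inhibitors of metalloproteases (Timp genes) and the plasminogen activator genes Plau, Plat and Plaur. Members were taken by gene symbol alone, under a rule that was set with earlier results of these data known. Of the RefSeq genes with such a symbol, 83 were found, 82 of them had a probe, and 40 could be tested, out of 14443 genes tested on the arrays. The 82 genes had 109 of the 28331 probes that could be given a symbol.

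The arrays measured RNA of mouse embryonic stem cells in 5 groups of 3 arrays each. In the first group, cells that lack Nat1 (RefSeq symbol Eif4g2, a translation initiation factor related to eIF4G) carried a tetracycline-inducible Map3k3 transgene and were cultured with doxycycline (Dox). Map3k3 encodes a kinase that acts upstream of MAP kinase pathways. The other groups were Nat1-null cells with an inducible EGFP transgene and Dox, the Map3k3 cells without Dox, Nat1-null cells without a named transgene, and wild-type (WT) cells. All groups but WT therefore lack Nat1, and all were grown in standard stem cell medium on gelatin. The labels do not say how the deletion was made, whether the lines are single clones, or whether samples within a group came from different cultures. The p-values therefore measure the spread between these samples, which may be technical.

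Levels are log2 signal relative to the 75th percentile of each array, so that 0 is the signal of that percentile and each unit is a doubling. The 75th percentiles lay between 556 and 696 intensity units. The share of probes above background was lowest on Map3k3 with Dox 2, at 42.7%, and reached 53.9% elsewhere. The probe for Eif4g2 read between 1.36 and 1.87 on the 12 arrays without Nat1, against 4.15, 4.40 and 4.40 in WT cells. The probe for Map3k3 read -0.48, -0.36 and -0.67 in Map3k3 cells with Dox, against -0.75, -0.44 and -0.85 without Dox, and these arrays overlapped. No source used here says whether the transgene contains that probe, so it is no check of the induction, and the group names below follow the labels. The summed level of 8 embryonic stem cell markers was 789 to 842 times the 75th percentile in Map3k3 cells with Dox, 1014 to 1068 without Dox, 1066 to 1109 in Nat1-null and 611 to 646 in WT cells.

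Metalloproteases of these families carry a zinc ion in the active site and are made as inactive proenzymes that other proteases switch on. MMPs and ADAMTS enzymes cut collagens, proteoglycans and other matrix proteins, many ADAM proteases release the outer part of membrane proteins, and TIMPs block the active site of the metalloproteases. Plau (urokinase) and Plat (tissue-type activator) turn plasminogen into plasmin, a broad protease, and Plaur is the receptor that holds Plau at the cell surface. In the early mouse embryo, trophoblast cells are known for secreting Mmp9 and Plau when they invade the uterus, and parietal endoderm for secreting Plat.

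The letters TGAGTCA, the binding sequence of AP-1 transcription factors that act downstream of MAP kinases, are shown because MMP and plasminogen activator genes are textbook AP-1 targets. Promoters came from RefSeq on GRCm38.p6 and ran from 250 bases before to 50 bases after each gene start. The letters, or TGACTCA, which are the same site read on the other strand, stood in 11 of 56 member promoters (19.6%) and in 1709 of 32851 promoters of all genes (5.20%). Promoters were at hand for 51 of the 83 member genes. There was none for Plau, Mmp9 or Mmp2, so these genes were not searched for the letters. Only 2 of the 11 genes with the letters could be tested on the arrays, Plaur and Adam19. Their sites are printed 5′ to 3′ on the gene's strand with the AP-1 letters in capitals, from chr7:24462394-24462440 (plus strand) for Plaur and chr11:46055833-46055879 (plus strand) for Adam19. The first capital lies at position -69 from the gene start in Plaur and at -131 from a gene start of Adam19. Promoters at the other starts of Adam19 lack the letters.
Plaur: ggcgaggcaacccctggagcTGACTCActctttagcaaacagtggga
Adam19: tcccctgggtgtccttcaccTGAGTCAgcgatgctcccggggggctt

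Plaur was high and rose with Map3k3, and Adam19 was called only between genotypes, as its values below show. Of the other 9 genes with the letters, 7 are Mmp genes in a run of 10 neighbouring Mmp genes on chromosome 9, none of which passed the filter. Their sites are printed, in gene order along the chromosome, to show where the AP-1 letters stand in neighbours that could not be tested. They are Mmp13 (chr9:7272459-7272505, plus strand), Mmp12 (chr9:7347310-7347356, plus strand), Mmp1b (chr9:7388093-7388139, minus strand), Mmp3 (chr9:7445756-7445802, plus strand), Mmp1a (chr9:7464048-7464094, plus strand), Mmp10 (chr9:7502259-7502305, plus strand) and Mmp7 (chr9:7692007-7692053, plus strand).
Mmp13: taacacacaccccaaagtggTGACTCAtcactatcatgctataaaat
Mmp12: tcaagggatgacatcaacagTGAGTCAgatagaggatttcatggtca
Mmp1b: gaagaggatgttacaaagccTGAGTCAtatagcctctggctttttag
Mmp3: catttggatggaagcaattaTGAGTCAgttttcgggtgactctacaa
Mmp1a: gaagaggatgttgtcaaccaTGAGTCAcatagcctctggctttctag
Mmp10: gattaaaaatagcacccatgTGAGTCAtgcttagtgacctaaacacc
Mmp7: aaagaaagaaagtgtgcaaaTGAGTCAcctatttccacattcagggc

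In these 7 promoters the first capital lay between -93 (Mmp1b) and -35 (Mmp13). The run holds Mmp13, Mmp1a, Mmp1b, the stromelysins (Mmp3 and Mmp10), matrilysin (Mmp7), Mmp12 and, without the letters in the window, Mmp8, Mmp20 and Mmp27. Of the 9 genes of the run with a probe, 8 were well above background on none of the 15 arrays and Mmp10 on 1. The cyclic AMP response letters TGACGTCA, which read the same on both strands, stood in 0 of the 56 member promoters and in 1.79% of all. The Ets letters CAGGAAGT, or ACTTCCTG on the other strand, stood in the promoters of Timp1 and Timp4 and in 3.33% of all. None of these 3 motifs contains another, and a match describes the sequence and not binding.

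A gene was tested when, in 1 group or more, one of its probes stood above background on every array. That was so for 17 of 34 Adam genes, 9 of 19 Adamts genes, 8 of 22 Mmp genes, 3 of 4 Timp genes and all 3 plasminogen activator genes. Of the 42 genes with a probe that did not pass, 26 were above background on no array. The other 16 were so on 1 to 6 arrays, among them Adamts17 on 6, Timp4 on 5 and Adam6b on 4. Many of the untested Adam genes, such as Adam2, Adam3, Adam24 and Adam30, are known from testis and sperm. Of the 40 genes tested, 22 were above background on every array, and 8 passed through 1 group alone. These 8 were Plau and Mmp9 through Map3k3 with Dox, and Adam32, Adam4, Adamts2, Adamts19, Mmp25 and Plat through WT.

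**Figure D1:**
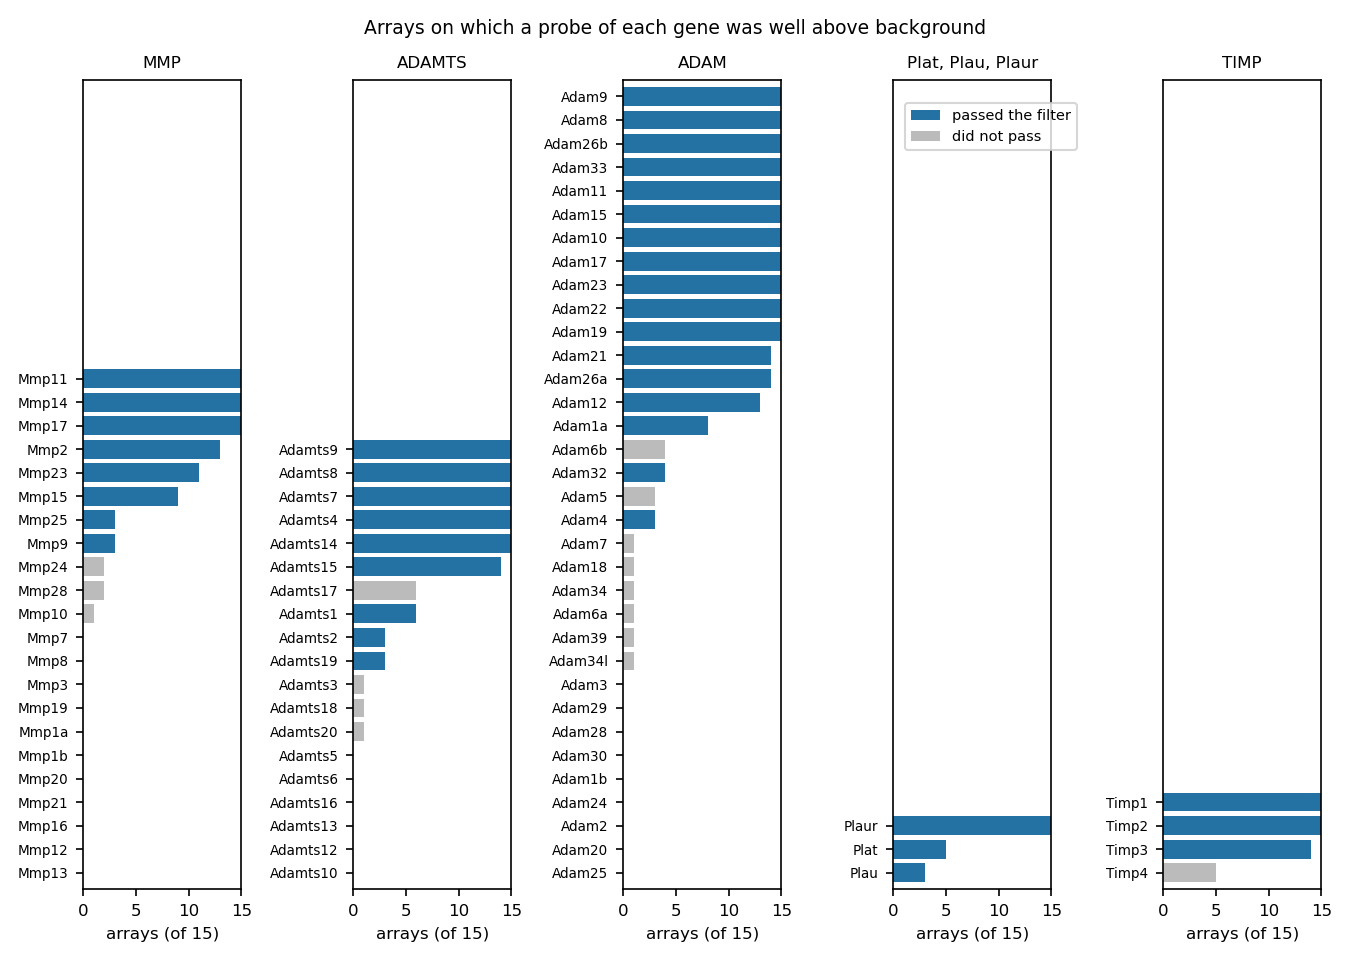
Number of the 15 arrays (horizontal axis) on which a probe of each member gene was well above background, by family. Blue bars are the 40 genes that passed the filter, and grey bars or empty lines are the 42 that did not; the 3 plasminogen activator genes all passed, while 14 of the 22 Mmp genes did not.

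In Map3k3 cells with against without Dox, 16 members rose and 5 fell. All 3 plasminogen activator genes, Timp2 and Timp3 of the 3 TIMPs, and 4 of 8 MMPs rose, led by Plau, Adamts1, Mmp9, Timp2 and Adam8, each at least 7.70-fold higher. Plau and Mmp9 passed the filter through Map3k3 with Dox alone, and Adamts1 only through that group and WT. The rise of these genes was therefore favoured by how they were admitted. Mmp25, counted among the risen MMPs, was above background in neither group. Mmp2, Mmp17, Adamts15, Adamts9 and Adam26a fell, by 1.54 to 2.24-fold. Of the 17 ADAM genes 3 rose and 1 fell, and of the 9 ADAMTS genes 4 rose and 2 fell.

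A gene was called by limma when its adjusted p was under 0.05 and the difference at least 1.5-fold. The 21 called members are 52.5% of those tested, while 18.0% of all genes tested were called, 12.0% as higher and 6.00% as lower. The median change was 0.39 over members and -0.09 over all genes on the log2 scale. Genes that pass the filter only through a group where they are high had to differ, so the 22 members above background on all arrays are given as well. Among these, 10 were called, 8 as higher and 2 as lower, against 14.6% of all genes so measured. The arrays did not overlap in 27 of the 40 members and in 51.4% of all genes. All 6 arrays lay on 1 slide. With slide row as a block 20 members were called. Within row 1 of the slides 16 were called, but there 1 Map3k3 array with Dox stands alone and is assumed to vary like the other groups. Another background correction (normexp, which adds 50 units to every signal) gave smaller differences for all 21 called members, by over 1.5 times for 9 of them. The log2 differences were then 1.85 for Plau, 2.34 for Adamts1, 1.51 for Mmp9, 1.37 for Mmp23, 1.21 for Timp3, 3.62 for Timp2 and 2.89 for Adam8. The folds given below, bounds included, are those of the deposited processed signals.

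Against the EGFP cells with Dox, 16 members rose and 6 fell, while 18.2% of all genes were called, 12.1% as higher and 6.04% as lower. Of the 22 members above background on all arrays 9 were called, 7 as higher and 2 as lower, against 15.0% of all genes so measured. The arrays did not overlap in 30 of 40 members and in 50.6% of all genes. Both of these comparisons use the same Map3k3 arrays with Dox, so their values stand side by side and are not independent. The families split as 3 risen and 2 fallen ADAM genes, 4 and 2 ADAMTS genes, 4 and 2 MMPs, 3 and 0 plasminogen activator genes, and 2 and 0 TIMPs. Adamts4 and Adam26a were called only against cells without Dox, and Adam12, Adam21 and Adamts2 only against EGFP cells. Whether the calls of these 5 genes differ between the controls was not tested.

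**Figure D2:**
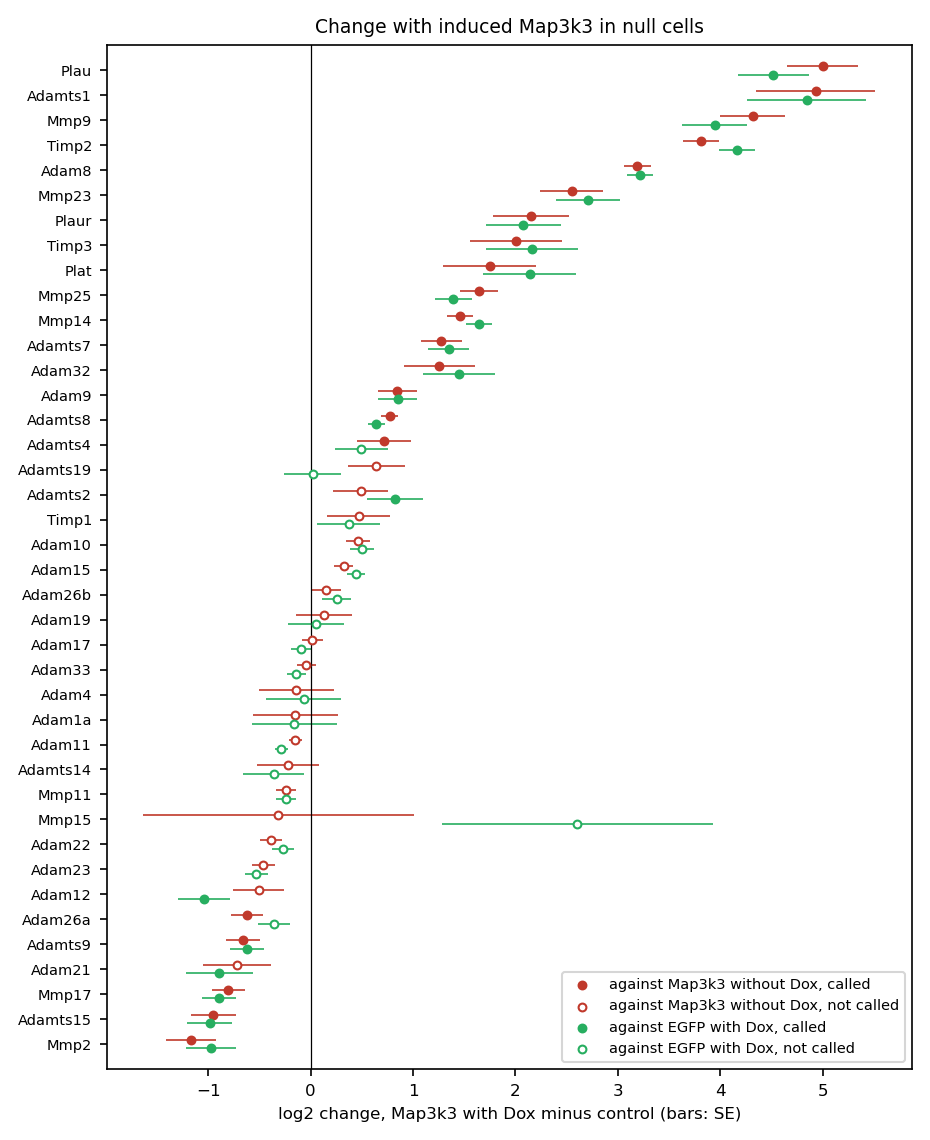
Log2 difference of each tested member in Map3k3 cells with Dox, minus cells without Dox (red) or minus EGFP cells with Dox (green). Filled points are called members and open points are not; Plau, Adamts1, Mmp9, Timp2 and Adam8 lie farthest to the high side.

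In Nat1-null against WT cells, 7 members rose and 13 fell. No MMP, plasminogen activator or TIMP gene rose. Mmp2, Mmp9, Mmp23, Mmp25, Plat, Timp2 and Timp3 fell, as did Adamts1, Adamts2, Adamts19, Adam8, Adam19 and Adam32. The genes that rose were Adam1a, Adam10, Adam15, Adam23, Adam26a, Adamts7 and Adamts8. The 20 called members are 50% of those tested, and 38.3% of all genes were called, 18.3% as higher and 20.0% as lower. Adam32, Adamts2, Adamts19, Mmp25 and Plat passed the filter through WT alone, so their fall was favoured by how they were admitted. Among the 22 members above background on all arrays, 8 were called, 5 as higher and 3 as lower, against 33.2% of all genes so measured. The arrays did not overlap in 31 of 40 members and in 72.9% of all genes. The Nat1-null arrays lay in slide row 2 and the WT arrays in row 1, so no value within a row exists, and with slide row as a block 19 members were called. The median change was -0.29 over members and 0.10 over all genes. Limited to genes above background on all arrays, it was 0.12 over members and 0.17 over all genes. The normexp correction gave smaller differences for all 20 called members, by over 1.5 times for 12 of them, Mmp23, Timp3 and Adamts1 included. With it 2 of the calls were lost.

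The marker lists moved as well. Each sum adds linear signals, so the brightest gene of a list weighs more in it than any other. For trophectoderm this gene was Krt18, at a log2 level of 7.96 to 8.19 in Map3k3 cells with Dox. For endoderm it was Sparc, at 7.79 to 7.95 in the same cells, and for fibroblasts Tagln, at 5.79 to 5.96 in WT cells. The summed level of fibroblast or feeder markers was 5.62 to 5.70 in Nat1-null cells, against 83.3 to 88.4 in WT cells, and 7 of its 8 measured genes fell. Of its 10 genes, Lum was above background on no array. Trophectoderm markers summed to 10.5 to 23.9 in Nat1-null cells, against 162 to 169 in WT cells, and all 7 measured genes fell. Parietal or primitive endoderm markers summed to 88.8 to 105 in Nat1-null and 155 to 202 in WT cells, and 6 of 8 fell. In Map3k3 cells with Dox the trophectoderm sum was 291 to 344, against 10.4 to 20.3 without Dox, with 6 of 7 genes risen, and the endoderm sum was 236 to 268, against 91.9 to 117, with all 8 risen. The fibroblast sum was 10.0 to 12.6 with Dox, against 4.59 to 5.87 without, with 3 genes risen and 1 fallen. Of the 4 macrophage markers 2 were tested, and their summed level was 13.3 to 16.6 in Nat1-null cells, against 4.84 to 5.23 in WT cells. Cd68 rose 3.32-fold there, Csf1r was not called, and Ptprc, the leukocyte marker, was above background on no array. With Map3k3 and Dox the macrophage sum was 10.7 to 11.4, against 11.6 to 15.1 without Dox, and neither gene was called. The part of these cell types in the protease values was not tested, and in bulk RNA fewer cells of a type and less RNA per cell cannot be told apart.

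**Figure D3:**
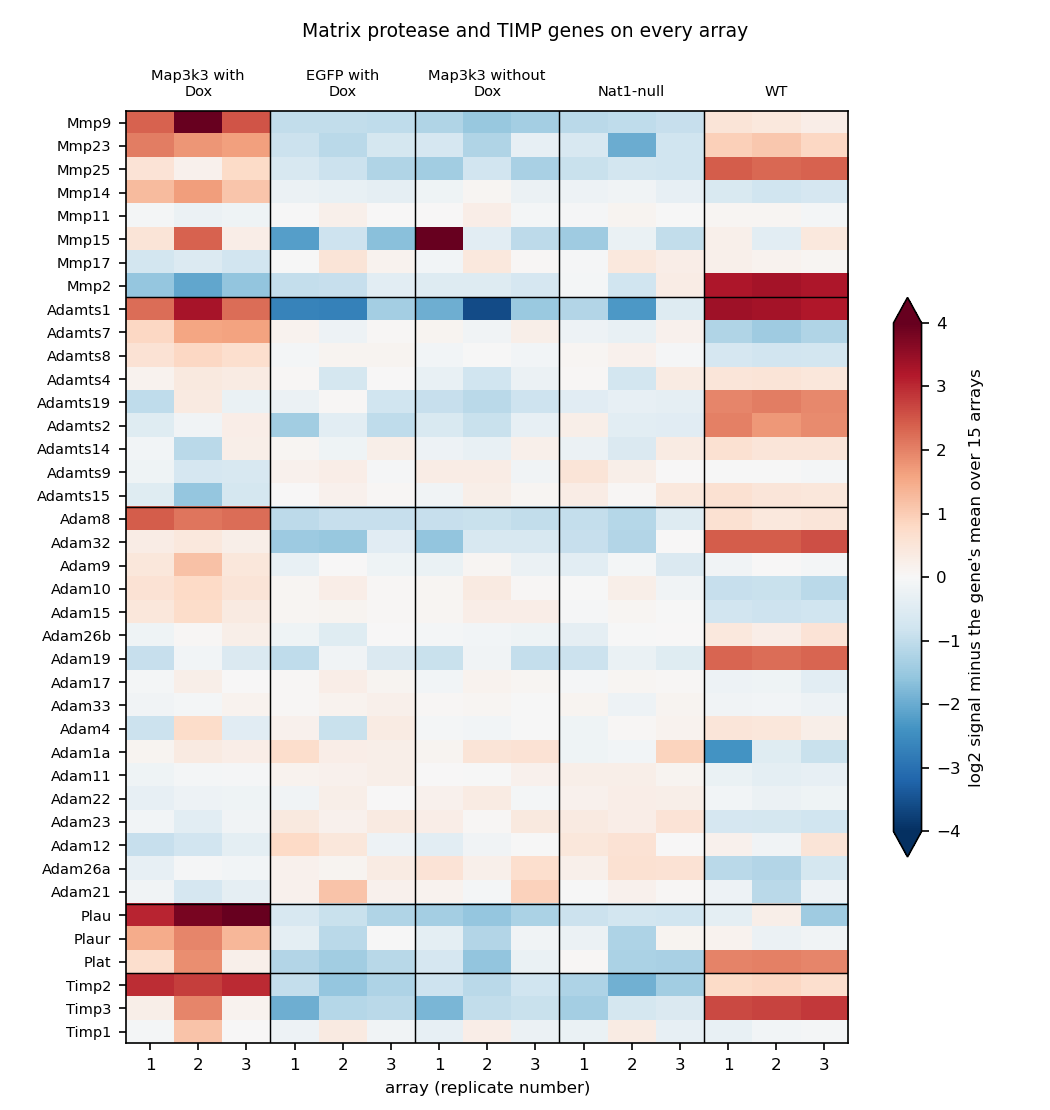
Level of the 40 tested members on each of the 15 arrays, as log2 level minus the gene's mean over all arrays (colour scale), with groups from left to right Map3k3 with Dox, EGFP with Dox, Map3k3 without Dox, Nat1-null and WT. The EGFP, Map3k3 without Dox and Nat1-null columns look alike, while the Map3k3 with Dox and WT columns each stand apart.

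Among the plasminogen activator genes, Plau differed most between Map3k3 cells with and without Dox. Plau read -2.31, -1.56 and -1.37 in Map3k3 cells with Dox, against -6.01, -6.24 and -6.55 in the EGFP cells and -6.72, -6.90 and -6.62 without Dox. It read -6.23, -6.09 and -6.14 in Nat1-null cells and -5.75, -5.12 and -6.80 in WT cells, and it was well above background only on the 3 arrays of Map3k3 cells with Dox. The difference was 5.00 (SE 0.35, adjusted p = 5.91e-07) against cells without Dox, at least 10.5-fold. It was at least 7.85-fold higher than in EGFP cells and at least 8.47-fold higher than in WT cells. Between Nat1-null and WT cells, both below background, Plau was called without WT 3 alone (log2 -0.72, adjusted p = 0.038). A bound is given where no array of the lower group was above background, and it sets that group at the lowest signal above background on its arrays, or at its own signal where that is higher.

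Plaur, the receptor of Plau, was far above background everywhere. It read 4.94, 5.42 and 4.80 in Map3k3 cells with Dox, 3.09, 2.40 and 3.44 in the EGFP cells, 3.09, 2.31 and 3.32 without Dox, 3.24, 2.24 and 3.57 in Nat1-null cells, and 3.61, 3.25 and 3.32 in WT cells. The 3 arrays with Dox and Map3k3 lay above all 12 others. The rise was 4.45-fold (log2 2.15, SE 0.37, adjusted p = 0.000691) against cells without Dox, 4.22-fold against the EGFP cells and 3.18-fold against WT cells. Between Nat1-null and WT cells it differed by -0.38 (SE 0.37, adjusted p = 0.39) and was not called.

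Plat, the tissue-type activator, was measured best in WT cells. It read -4.36, -3.16 and -4.82 in Map3k3 cells with Dox, -6.19, -6.42 and -6.15 in the EGFP cells, -5.71, -6.59 and -5.28 without Dox, -4.99, -6.29 and -6.34 in Nat1-null cells, and -3.04, -3.01 and -3.09 in WT cells. Only the WT arrays and 2 of the 3 arrays of Map3k3 cells with Dox were above background. Plat fell at least 2.55-fold in Nat1-null against WT cells (log2 -2.83, SE 0.45, adjusted p = 0.000163). It rose at least 1.96-fold in Map3k3 cells with against without Dox (adjusted p = 0.009), but not with the replicate number as a block in these 2 groups alone (adjusted p = 0.108, the highest of its alternatives, which reached down to 0.00477). In Map3k3 cells with Dox against WT cells the difference of -1.07 was not called (adjusted p = 0.0575). It was called without Map3k3 with Dox 2 (log2 -1.55), without Map3k3 without Dox 2 or without Nat1-null 1 (adjusted p between 0.00773 and 0.0435).

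Partners of this system moved too, in a list of 16 genes of which 11 were tested. With Map3k3 and Dox against without, 3 rose and 2 fell. Anxa2 and S100a10, which together form a plasminogen receptor, were 8.41-fold and 2.05-fold higher. A2m, a broad protease inhibitor, fell at least 5.02-fold and Lrp1, which takes up protease-inhibitor complexes, 1.53-fold. Lrp1 missed the fold limit without Map3k3 with Dox 2 or without Map3k3 without Dox 2 (log2 -0.58 and -0.46). In Nat1-null against WT cells, 3 partners rose and 5 fell, among them Serpine2, a protease inhibitor of the serpin family, 4.62-fold lower, with Lrp1 5.58-fold higher.

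**Figure D4:**
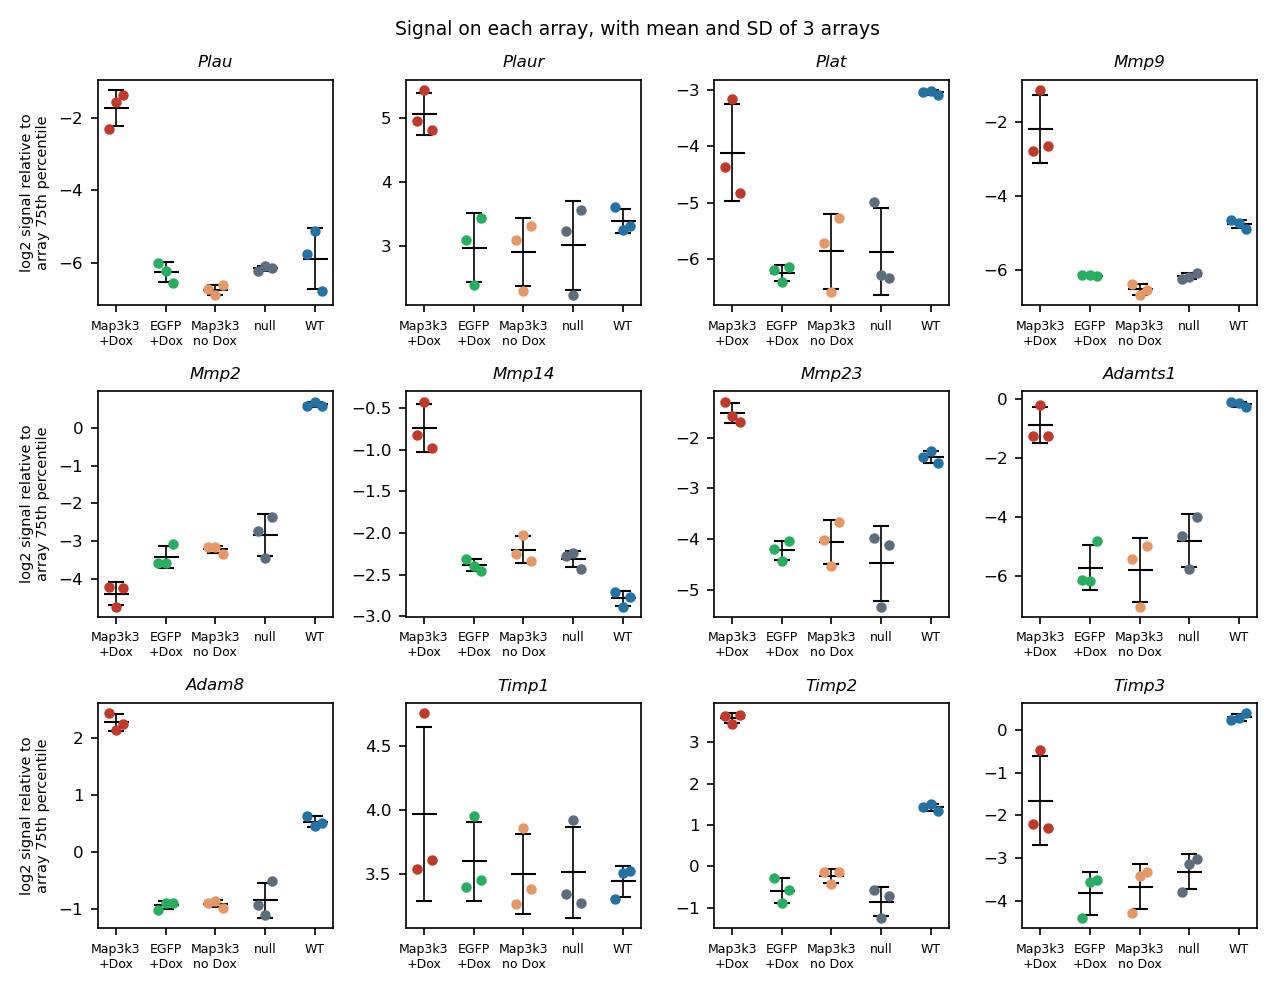
Log2 level relative to the array's 75th percentile of 12 members on every array (points), with group means (bars), in the order Map3k3 with Dox, EGFP with Dox, Map3k3 without Dox, Nat1-null and WT. Plau and Mmp9 are high in Map3k3 cells with Dox, Mmp2 is high in WT cells, and Timp1 lies between 3.27 and 4.76, highest on Map3k3 with Dox 2.

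The gelatinases Mmp9 and Mmp2, which cut denatured collagen and the collagen of basement membranes, moved in opposite directions with Map3k3. Mmp9 read -2.78, -1.15 and -2.65 in Map3k3 cells with Dox, against -6.13, -6.13 and -6.16 in the EGFP cells and -6.35, -6.66 and -6.52 without Dox. It read -6.24, -6.17 and -6.06 in Nat1-null cells, against -4.64, -4.73 and -4.88 in WT cells, and only the Map3k3 arrays with Dox were above background. Mmp9 was at least 7.70-fold higher with than without Dox (log2 4.32, SE 0.32, adjusted p = 8.69e-07) and at least 5.89-fold higher than in WT cells. It was called lower in Nat1-null than in WT cells (log2 -1.41, adjusted p = 0.00197), but neither group was above background and no fold is given.

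Mmp2 showed its highest level in WT cells. It read -4.20, -4.73 and -4.22 in Map3k3 cells with Dox, -3.59, -3.58 and -3.07 in the EGFP cells, -3.16, -3.15 and -3.33 without Dox, -2.73, -3.44 and -2.35 in Nat1-null cells, and 0.58, 0.68 and 0.58 in WT cells. The WT arrays lay above the other 12, and the Map3k3 arrays with Dox below them all, with 1 of 3 above background. Mmp2 fell 11.0-fold in Nat1-null against WT cells (log2 -3.45, SE 0.24, adjusted p = 1.8e-07) and 31.9-fold in Map3k3 cells with Dox against WT cells, where 1 of the 3 Map3k3 arrays was above background. With the normexp correction these log2 differences were -2.61 and -3.40. With against without Dox it fell 2.24-fold (log2 -1.17, SE 0.24, adjusted p = 0.00239), and against EGFP cells 1.96-fold. Under normexp the log2 difference of Mmp2 with against without Dox was -0.55 and not called. Its call against EGFP cells was lost in 2 of 30 other settings.

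Mmp14, the membrane-anchored MMP that activates Mmp2 together with Timp2, read -0.83, -0.43 and -0.98 in Map3k3 cells with Dox, against -2.26, -2.02 and -2.33 without Dox. It read -2.31, -2.40 and -2.45 in the EGFP cells, -2.28, -2.24 and -2.43 in Nat1-null cells and -2.70, -2.88 and -2.76 in WT cells. The Map3k3 arrays with Dox were again above all 12 others, and those of WT cells were the lowest. The rise was 2.75-fold with against without Dox (SE 0.13 on the log2 scale, adjusted p = 4.25e-06) and 4.11-fold against WT cells. In Nat1-null against WT cells Mmp14 was 1.38-fold higher (adjusted p = 0.00699), below the 1.5-fold limit of a call.

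Mmp23, a membrane-linked MMP, rose 5.86-fold with against without Dox (log2 2.55, SE 0.31, adjusted p = 5.41e-05) and fell 4.28-fold in Nat1-null against WT cells, where 1 of 3 Nat1-null arrays was above background. Its levels were -1.29, -1.57 and -1.68 in Map3k3 cells with Dox, -4.01, -4.52 and -3.66 without Dox, -3.98, -5.33 and -4.12 in Nat1-null and -2.39, -2.26 and -2.50 in WT cells. Mmp25, which a lipid anchor holds on the membrane, was above background only in WT cells and fell at least 2.51-fold in Nat1-null against WT cells. It was called higher with than without Dox (log2 1.64, adjusted p = 2.7e-05), with no fold because neither group was above background. Mmp17, also lipid-anchored, fell 1.75-fold with against without Dox (adjusted p = 0.0021) and 1.77-fold against WT cells, and in Nat1-null against WT cells its difference was 0.08.

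Mmp11 (stromelysin 3), which was well above background on all arrays, was called in no comparison. Its levels ran between 2.15 and 2.31 in Map3k3 cells with Dox and between 2.31 and 2.68 without Dox, a difference of -0.24 (SE 0.10, adjusted p = 0.0691). Mmp15, another membrane-anchored MMP, had 1 array far from its group. It read 1.92 on Map3k3 without Dox 1, -4.00 and -4.64 on the other arrays of that group, and between -5.80 and -1.23 on the 12 arrays of the other groups. The difference with against without Dox was -0.31 (SE 1.32, adjusted p = 0.871), and without Map3k3 without Dox 1 it was 1.77 (adjusted p = 0.0473). Against EGFP cells the difference of 2.61 was not called (adjusted p = 0.132). With the replicate number as a block in those 2 groups it was (adjusted p = 0.011), within alternatives from 0.00345 to 0.631.

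Of the ADAMTS genes, Adamts1, which cuts the proteoglycans versican and aggrecan, moved most. It read -1.23, -0.17 and -1.23 in Map3k3 cells with Dox, -6.16, -6.18 and -4.83 in the EGFP cells, -5.41, -7.05 and -4.97 without Dox, -4.65, -5.76 and -4.00 in Nat1-null cells, and -0.09, -0.14 and -0.26 in WT cells. Map3k3 cells with Dox and WT cells were above background on every array, and no other array was. Adamts1 fell at least 15.4-fold in Nat1-null against WT cells (log2 -4.64, SE 0.58, adjusted p = 2.2e-05) and was at least 17.2-fold higher with than without Dox (log2 4.93, SE 0.58, adjusted p = 4.33e-05). Without Map3k3 without Dox 2, its lowest array, the difference with against without Dox was 4.32. In Map3k3 cells with Dox against WT cells the difference was -0.71 (SE 0.58, adjusted p = 0.305), which was not called, and the arrays overlapped.

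Adamts7 and Adamts8, which cut matrix glycoproteins and aggrecan, rose in both comparisons, that is, in Nat1-null against WT cells and again with Map3k3. Adamts7 read -1.01, -0.28 and -0.22 in Map3k3 cells with Dox, -1.73, -1.99 and -1.62 without Dox, -2.04, -2.14 and -1.69 in Nat1-null and -3.04, -3.28 and -3.05 in WT cells. It rose 2.24-fold in Nat1-null against WT cells (adjusted p = 0.000281), 2.42-fold with against without Dox (adjusted p = 0.000375) and 6.14-fold in Map3k3 cells with Dox against WT cells. Adamts8 rose 1.73-fold in Nat1-null against WT cells, 1.71-fold with against without Dox and 2.66-fold in Map3k3 cells with Dox against WT cells. When the log2 values of its passing probes were averaged, its difference with against without Dox was 0.38 and it was no longer called. Against the EGFP cells its rise of 0.64 on the log2 scale became 0.57 without Map3k3 with Dox 2 and 0.58 without EGFP with Dox 1, just under the fold limit.

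Adamts15 and Adamts9, which cut versican, fell with Map3k3. Adamts15 read -2.43, -3.50 and -2.64 in Map3k3 cells with Dox, with 2 of 3 arrays above background, against -2.11, -1.73 and -1.88 without Dox. That was a fall of 1.93-fold (adjusted p = 0.00434), which was lost with the replicate number as a block in the 2 groups (adjusted p = 0.0901, within alternatives from 0.00154 to 0.0901). Against EGFP cells it fell 1.98-fold, and the same block again ended the call (adjusted p = 0.0653). Adamts9 fell 1.57-fold with against without Dox (adjusted p = 0.00791) and 1.54-fold against EGFP cells. It missed the fold limit, at -0.58 to -0.54 on the log2 scale, without Map3k3 with Dox 2 or 3 in both comparisons, without Map3k3 without Dox 2 in the first and without EGFP with Dox 2 in the second. Against WT cells it was called only without Map3k3 with Dox 1 (log2 -0.62). Adamts4, an aggrecanase, was 1.65-fold higher with than without Dox with an adjusted p of 0.0445, and in 10 of the 15 fits that leave out 1 array it was no longer called (adjusted p up to 0.15, without Map3k3 without Dox 2). In Nat1-null against WT cells its difference of -0.59 was called without Nat1-null 3 (log2 -0.82) or without EGFP with Dox 2.

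Adamts2 and Adamts14, which trim the N-terminal ends of procollagens, had unlike levels. Adamts2 was above background only in WT cells, at -2.85, -3.12 and -2.99, against -4.62, -5.28 and -5.32 in Nat1-null cells, which lay below background, and it fell at least 2.65-fold (adjusted p = 2.99e-05). It was called higher in Map3k3 cells with Dox than in EGFP cells (log2 0.83, adjusted p = 0.0275) with both groups below background and overlapping arrays, and the block ended that call (adjusted p = 0.0625, within alternatives from 0.00768 to 0.874), as did leaving out Map3k3 with Dox 2 or 3 or EGFP with Dox 1 or 3 (log2 0.60 to 0.84). Adamts14 was above background on all arrays and differed by -0.69 in Nat1-null against WT cells (adjusted p = 0.0611), where it was called without Nat1-null 3 (log2 -0.94) or without Map3k3 with Dox 2 or 3. In Map3k3 cells with Dox against WT cells it fell 1.80-fold (adjusted p = 0.0269), a call lost without any 1 of the WT arrays or without Map3k3 with Dox 2 (log2 -0.48, adjusted p = 0.111). Adamts19 fell at least 1.42-fold in Nat1-null against WT cells and at least 1.54-fold in Map3k3 cells with Dox against WT cells.

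Among the ADAM genes, Adam8, a membrane protease best known from leukocytes, rose most with Map3k3. It read 2.44, 2.15 and 2.26 in Map3k3 cells with Dox, -1.02, -0.89 and -0.89 in the EGFP cells, -0.89, -0.86 and -0.97 without Dox, -0.93, -1.11 and -0.50 in Nat1-null cells, and 0.64, 0.46 and 0.52 in WT cells. The groups formed 3 levels that did not overlap, highest with Map3k3 and Dox, then WT, then the other 3 groups. The rise was 9.12-fold with against without Dox (log2 3.19, SE 0.13, adjusted p = 5.64e-09) and 9.29-fold against the EGFP cells. Nat1-null cells were 2.61-fold lower than WT cells (log2 -1.38, SE 0.13, adjusted p = 2.1e-06), and Map3k3 cells with Dox were 3.35-fold higher than WT cells.

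Adam19, a protease of the membrane neuregulins whose promoter site is printed above, fell with the loss of Nat1 and was not called with Map3k3. It read -0.39, 0.43 and -0.05 in Map3k3 cells with Dox, -0.38, 0.39 and -0.42 without Dox, -0.33, 0.27 and 0.04 in Nat1-null cells, and 2.86, 2.77 and 2.86 in WT cells. The WT arrays lay above all others, and the Map3k3 groups overlapped. The fall in Nat1-null against WT cells was 7.16-fold (log2 -2.84, SE 0.28, adjusted p = 2.8e-06). With against without Dox the difference was 0.13 (SE 0.28, adjusted p = 0.731).

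Adam10 and Adam17 are the main sheddases of the cell surface, known for releasing Notch and growth factor precursors. Adam10 read 2.49, 2.69 and 2.43 in Map3k3 cells with Dox, 1.99, 2.28 and 1.95 without Dox, 1.90, 2.15 and 1.76 in Nat1-null cells, and 0.98, 1.02 and 0.82 in WT cells. Nat1-null cells were thus above WT cells on every array, by 1.99-fold (log2 0.99, SE 0.12, adjusted p = 1.8e-05). With against without Dox Adam10 was 1.38-fold higher (adjusted p = 0.00953), short of the fold limit, and against WT cells it rose 3.02-fold in Map3k3 cells with Dox. Adam17 read between -2.91 and -2.22 on all 15 arrays, and its difference was 0.02 (SE 0.10, adjusted p = 0.908) with against without Dox and 0.28 (adjusted p = 0.0328, 1.22-fold) in Nat1-null against WT cells. Adam17 was called in no comparison.

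Adam9 and Adam15, broadly expressed membrane proteases, were called once each in the comparisons that share no array. Adam9 rose 1.80-fold with against without Dox (log2 0.85, SE 0.19, adjusted p = 0.00385) and 1.69-fold against WT cells, where without Map3k3 with Dox 2 it was not called (log2 0.52). Adam15 rose 1.75-fold in Nat1-null against WT cells (log2 0.81, SE 0.09, adjusted p = 8.7e-06). Adam11, Adam22 and Adam23 lack a working protease site and are known as neuronal surface proteins. Of these Adam23 rose 2.18-fold in Nat1-null against WT cells (adjusted p = 4.05e-06), with levels of 3.35, 3.26 and 3.54 in Nat1-null and 2.32, 2.27 and 2.19 in WT cells. Adam11 and Adam22 differed in the same comparison by 0.52 and 0.39, below 1.5-fold. Against EGFP cells Adam23 differed by -0.53 and was called without Map3k3 with Dox 1 (-0.59) or EGFP with Dox 2 (-0.60). In Map3k3 cells with Dox against WT cells it differed by 0.50 and was called without Map3k3 with Dox 2 (0.61). Another passing Adam23 probe, above background on all 15 arrays, differed there by 1.85, and by 2.20 in Nat1-null against WT cells. When the log2 values of its passing probes were averaged, Adam23 differed by 1.17 in Map3k3 cells with Dox against WT cells and was called. Adam33, Adam4 and Adam26b were called in no comparison. Adam4 was called against WT cells without Map3k3 with Dox 2 (log2 -1.06), and Adam26b in Nat1-null against WT cells without WT 2, Nat1-null 2 or Nat1-null 3 (log2 -0.61 to -0.59).

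Adam12, a protease of muscle, bone and placenta, fell 2.06-fold in Map3k3 cells with Dox against EGFP cells, with 1 of the 3 Map3k3 arrays above background (adjusted p = 0.00569). With the replicate number as a block in the 2 groups the adjusted p was 0.0825, within alternatives from 0.0013 to 0.165. The remaining called ADAM genes are best known from the male germline. Adam32 fell at least 5.27-fold in Nat1-null against WT cells, and with Map3k3 and Dox it was at least 1.86-fold higher than without, with 1 array above background. Without Map3k3 without Dox 1 that rise was not called (log2 0.95, adjusted p = 0.057). Adam26a rose 2.74-fold in Nat1-null against WT cells and fell 1.54-fold with against without Dox (adjusted p = 0.00886; with the block adjusted p = 0.0505, within alternatives from 0.00349 to 0.0627). It missed the fold limit without Map3k3 with Dox 1 or Map3k3 without Dox 1 or 3 (log2 -0.58 to -0.52). Adam1a rose at least 1.61-fold in Nat1-null against WT cells with 1 of 3 Nat1-null arrays above background. That call was lost with slide row as a block (adjusted p = 0.129), with only the 2 groups or only slide 2 in the fit (adjusted p = 0.063), and with normexp (log2 0.47, under 1.5-fold). Adam21 fell 1.85-fold against EGFP cells at an adjusted p of 0.0468, which the block with all 15 arrays moved to 0.0563 and with the 2 groups to 0.126, within alternatives from 0.0309 to 0.762. In 10 of the 15 fits that leave out 1 array it was not called, and without EGFP with Dox 2 its difference was -0.56.

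Of the inhibitors, Timp2, which both inhibits MMPs and helps Mmp14 to activate Mmp2, rose most with Map3k3. It read 3.64, 3.44 and 3.67 in Map3k3 cells with Dox, -0.29, -0.88 and -0.58 in the EGFP cells, -0.15, -0.42 and -0.13 without Dox, -0.58, -1.25 and -0.72 in Nat1-null cells, and 1.44, 1.51 and 1.34 in WT cells. As for Adam8, the Map3k3 arrays with Dox lay highest, the WT arrays next, and no array of the other groups reached either. The rise was 14.1-fold with against without Dox (log2 3.81, SE 0.18, adjusted p = 1.65e-08), 17.9-fold against the EGFP cells and 4.45-fold against WT cells. In Nat1-null against WT cells Timp2 fell 4.85-fold (log2 -2.28, SE 0.18, adjusted p = 4.15e-07).

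Timp3, which is bound to the matrix and also inhibits ADAM and ADAMTS proteases, was highest in WT cells. It read -2.20, -0.46 and -2.29 in Map3k3 cells with Dox, -4.39, -3.55 and -3.50 in the EGFP cells, -4.27, -3.41 and -3.31 without Dox, -3.78, -3.13 and -3.01 in Nat1-null cells, and 0.22, 0.28 and 0.38 in WT cells. Map3k3 with Dox lay between WT and the other groups, with 1 array well above its pair. Timp3 fell 12.2-fold in Nat1-null against WT cells (log2 -3.60, SE 0.45, adjusted p = 2.13e-05) and rose 4.02-fold with against without Dox (log2 2.01, SE 0.45, adjusted p = 0.00386). Map3k3 cells with Dox were 3.85-fold below WT cells (log2 -1.95). Without Map3k3 with Dox 2 the log2 differences were 1.41 against cells without Dox, 1.57 against EGFP cells and -2.54 against WT cells, all still called. With slide as a block the difference against WT cells was -1.47 and not called.

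Timp1, a secreted inhibitor of most MMPs, was high on every array and called in no comparison. It read 3.54, 4.76 and 3.61 in Map3k3 cells with Dox, 3.39, 3.95 and 3.45 in the EGFP cells, 3.27, 3.86 and 3.38 without Dox, 3.34, 3.92 and 3.27 in Nat1-null cells, and 3.30, 3.50 and 3.52 in WT cells. In each of the 4 Nat1-null groups the array numbered 2 was the highest. The difference with against without Dox was 0.47 (SE 0.30, adjusted p = 0.237), and in Nat1-null against WT cells 0.07 (SE 0.30, adjusted p = 0.85).

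The comparison of Nat1-null with WT cells and that of Map3k3 cells with and without Dox share no array. Of the 13 members that fell in Nat1-null cells, 9 rose with Map3k3 (69.2%), and these 9 are 56.2% of the 16 that rose. Over all genes, 1076 fell in the first and rose in the second, which are 37.3% of those that fell and 61.9% of those that rose. The 9 genes were Plat, Mmp9, Mmp23, Mmp25, Adamts1, Adam8, Adam32, Timp2 and Timp3. Mmp2 fell in both, and Adam19, Adamts2 and Adamts19 were not called with Map3k3. Among the 22 members above background on all arrays, 3 fell in Nat1-null cells (Adam8, Adam19 and Timp2), and 2 of these rose with Map3k3, against 37.5% of all genes so measured that fell. Of the 13, 5 (Adam32, Adamts2, Adamts19, Mmp25 and Plat) passed the filter through WT alone and Mmp9 through Map3k3 with Dox alone. Adamts1 passed only through WT and Map3k3 with Dox. The share among the 13 therefore leans on how they were admitted. Plau, Plaur, Mmp14, Adam9 and Adamts4 rose with Map3k3 and were not called between Nat1-null and WT cells. Of the 9, Plat, Mmp9, Mmp25, Adamts1 and Adam32 were above background on no Nat1-null array and on no array of Map3k3 cells without Dox.

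**Figure D5:**
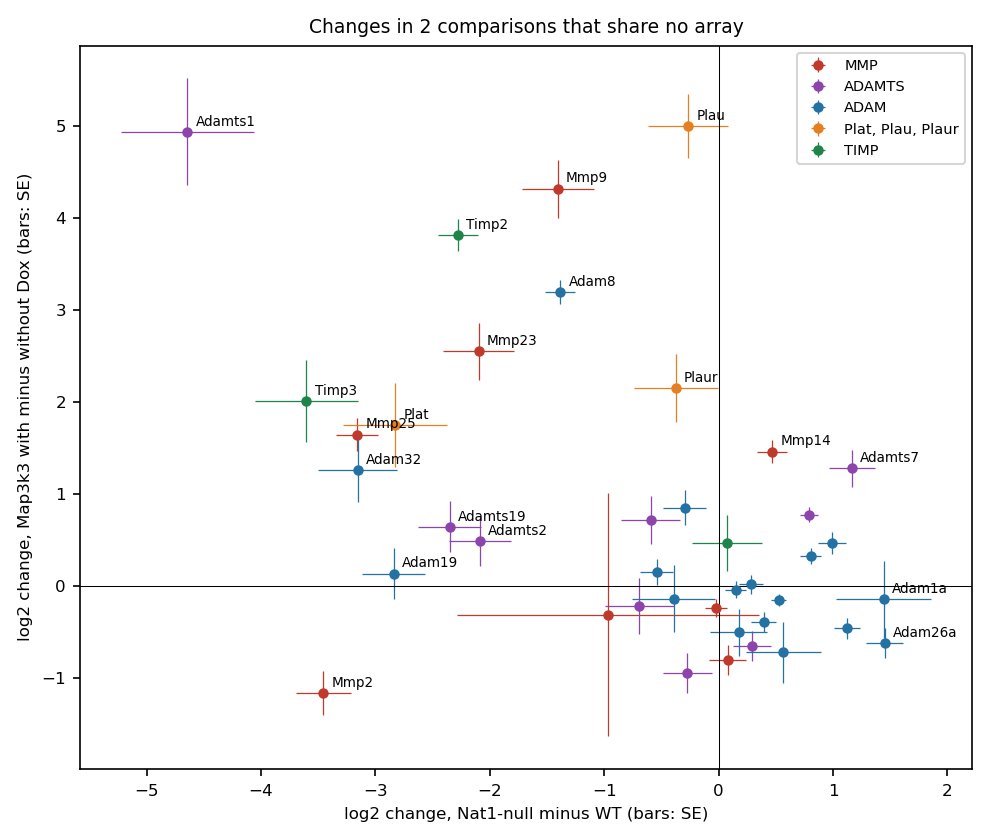
Log2 difference of each tested member in Nat1-null minus WT cells (horizontal axis) and in Map3k3 cells with Dox minus without Dox (vertical axis), with standard errors as bars. Adamts1, Timp2, Timp3, Adam8, Mmp9 and Mmp23 lie at the upper left, Plau and Plaur at the top near 0 on the horizontal axis, and Mmp2 at the lower left.

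Against WT cells, Map3k3 cells with Dox had 14 risen and 11 fallen members, while 38.3% of all genes were called, 18.6% as higher and 19.7% as lower. Of the 22 members above background on all arrays 12 were called, 9 as higher and 3 as lower, against 34.1% of all genes so measured. The arrays did not overlap in 34 of 40 members and in 70.9% of all genes. This comparison shares arrays with both of the preceding ones, and its values are given beside theirs. All Map3k3 arrays lay on slide 1 and all WT arrays on slide 2. With slide as a block, which only the EGFP arrays span, 19 members were called. The calls of Adam1a, Adam9, Adam32, Adamts14, Mmp23 and Timp3 were lost (adjusted p between 0.123 and 0.473), and the difference of Plaur was 2.37 on the log2 scale in place of 1.67. Of the 9 genes that fell in Nat1-null cells and rose with Map3k3, 4 were above WT (Adam8, Mmp9, Mmp23 and Timp2), 3 were below WT (Adam32, Mmp25 and Timp3), and Adamts1 and Plat were not called. Members above WT included Plau, Adamts7, Mmp9, Timp2 and Mmp14, and among those below it Mmp2 was 31.9-fold, Adam19 7.14-fold and Adam32 4.47-fold lower. Adamts19, with only a bound, was at least 1.54-fold lower. Mmp23 was 1.82-fold above WT (adjusted p = 0.028), a call lost without Map3k3 with Dox 1 or 2 or without WT 1 or 3 (log2 0.75 to 0.90).

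The control transgene and the uninduced line were also compared with Nat1-null cells. No member was called in EGFP cells with Dox against Nat1-null cells by limma, where 0.00692% of all genes were called. An unadjusted p under 0.05 was found for 2 members, and the lowest adjusted p was 0.563. No member was called in Map3k3 cells without Dox against Nat1-null cells, where 0% of all genes were called, with 1 member at an unadjusted p under 0.05 and a lowest adjusted p of 0.178. A p that misses the threshold does not show that the levels were alike.

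Lists of genes that act on or are cut by these proteases give further context. Among 18 tested activators and membrane partners, 6 rose and 1 fell with Map3k3. Those that rose included Furin, which activates many of the proenzymes, 2.30-fold, Cd44, a docking site of Mmp9, 7.58-fold, and Tspan12, a partner of Adam10, at least 3.84-fold higher. The gene that fell was Tspan15, which read -3.55, -3.45 and -3.50 in Map3k3 cells with Dox, against -2.32, -2.02 and -2.77 without Dox. Between Nat1-null and WT cells 7 of them rose and 4 fell, among them Pcsk6, 4.83-fold higher, and Reck, a membrane inhibitor of MMPs, at least 3.68-fold lower. Of 17 other matrix-degrading enzymes 6 rose and 0 fell with Map3k3, such as the cathepsin Ctsl, 3.06-fold, and heparanase (Hpse), 2.82-fold. Between Nat1-null and WT cells 4 of them rose and 4 fell, with Htra1 8.62-fold higher and Dpp4 6.09-fold lower. Of the 3 tested ADAMTS-like genes, Adamtsl1 fell at least 4.33-fold with Map3k3, and 1 gene of the list rose in Nat1-null against WT cells.

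Of 19 tested substrates of Adam10 and Adam17, 8 rose and 0 fell with Map3k3, and 3 rose and 9 fell in Nat1-null against WT cells. Cxcl16, a membrane chemokine, was 6.69-fold higher with Map3k3, and the Notch ligand Dll1 was at least 16.4-fold lower in Nat1-null cells. Among 22 matrix substrates of the MMP and ADAMTS families, 8 rose and 3 fell with Map3k3, and 3 rose and 14 fell in Nat1-null against WT cells. Col1a2 was at least 129-fold lower in Nat1-null cells and Lamb3, a laminin chain, 23.9-fold higher with Map3k3. Of 14 tested AP-1, Ets and Runx genes, 7 rose and 0 fell with Map3k3, including Fosl1 10.6-fold and Ets1 6.95-fold, and 2 rose and 7 fell in Nat1-null against WT cells. These counts stand beside the shares of all genes called in the same comparisons, which are given above, and the lists were not tested as sets.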

How the data were processed

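RNA of 15 samples was measured on single-colour Agilent arrays that the authors scanned and read with Feature Extraction 11.5.1.1, protocol GE1_1105_Oct12, per the file headers. The deposited processed green signal is an intensity already corrected for background by that software, per the file headers. Here each intensity was turned into log2, the spots of a probe were averaged without 2493 spots flagged as outliers, and the array's 75th percentile over non-control spots was subtracted. The authors' deposited normalized log2 values correlated with these at 1.0 on every array.

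Probes were named by RefSeq accession (GRCm38.p6). The brightest passing probe stood for a gene. 25 members had several probes and 7 several that passed. limma 3.58.1 in R 4.3.3 fitted 5 group means to 15 arrays with 10 residual degrees of freedom, and p-values were adjusted over 14443 genes by the Benjamini-Hochberg method. Tables and figures used Python 3.11.15 with pandas 2.3.3, numpy 2.4.6 and matplotlib 3.10.9. The fit was tested on simulated data.

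The members, lists and rules were chosen with earlier results of these data known. Called members are all named, and for each list the genes of largest fold, some of them left out here; 1 listed gene is not reported here. Arrays of equal number deviated together in Map3k3 with against without Dox (correlations 0.154, 0.318 and 0.252) and against EGFP (0.101, 0.316 and 0.193), so these numbers pair the arrays by a rule of over 0.1 for every pair. In Nat1-null against WT they did not (-0.03, 0.0084 and 0.0054). Equal numbers also deviated together in EGFP with Dox against Nat1-null (0.251, 0.561 and 0.383). Correlations for Map3k3 without Dox against Nat1-null were 0.270, 0.617 and 0.411. The main fit took no account of replicate numbers. The mean signal was not among the columns used, so the alternative background correction (normexp, offset 50) took the median signal. Precision is limited by 3 arrays per group.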

Additional observations from a re-analysis of the deposited data

How the results depend on the processing

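Counts of called members were recomputed under 28 to 31 other settings a comparison, 15 of which leave out 1 array each. Over the leave-one-out fits the counts ran from 19 to 21 for Map3k3 with against without Dox, 18 to 22 against EGFP, 20 to 23 for Nat1-null against WT and 23 to 26 for Map3k3 with Dox against WT, and stayed at 0 in the 2 comparisons with Nat1-null cells. With the replicate number as a block in all 15 arrays the counts were 21, 21, 22 and 25, and in the 2 groups alone 18, 19, 21 and 24. Background correction by normexp, chosen after seeing the data, gave 13 against cells without Dox and 13 against EGFP. Limiting the test to genes above background on all 15 arrays gave 10, 9, 8 and 12. Arrays of slide row 1 alone gave 10 against EGFP, which sets 1 Map3k3 array against 1 EGFP array with the spread taken from the other groups. No filter gave 39 called of 82 members in Map3k3 with Dox against WT. The only value called with a changed sign was that of Mmp15 with against without Dox, which ran from 1.77 without Map3k3 without Dox 1 to -1.51 without Map3k3 without Dox 3. Under normexp Mmp2 with against without Dox was -0.55 and lost its call, as did Adam26a, Adam32, Adamts4, Adamts9, Adamts15, Mmp25 and Plat. Map3k3 with Dox against WT gave 19 with the slide as a block. No fit within a slide row could be made for Nat1-null against WT, and none within a slide or row for Map3k3 without Dox against Nat1-null. The causes of these changes were not tested. Signals near background limit Plau, Plat, Mmp9, Mmp25, Adam1a, Adam32, Adamts1, Adamts2 and Adamts19. Their lower groups gave only a bound, or no fold at all, in some comparisons.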
